A study of Mus musculus with 12 samples.

Results

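Known direct targets of the miR-181 family, 8 genes in all, were followed in epididymal white adipose tissue (eWAT). They were Kpna4, Card10, Phlpp2, Dusp6, Nlk, Sirt1, Prox1 and Bcl2. They were taken by symbol from earlier work on miR-181, by a rule that uses no measured value, but with earlier results of these data known. All 8 were among the 49315 genes counted and among the 18702 genes with enough counts to be tested. RNA was sequenced from 12 mice, 3 per group with 1 library per mouse, after 12 weeks on a high-fat diet (HFD, 60% fat). Genotype was crossed with the weekly injections to give the 4 groups. Controls were Mir181a2b2 flox/flox mice (flox), the others were Mir181a2b2-/- mice (KO), and either received vehicle or methotrexate (MTX) at 1 mg/kg. The methods describe male mice of matched age, and the age at the start of the diet is not given in the sources used here. The KO is systemic, so the locus is missing from every cell of the tissue and not from endothelial cells alone.

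A microRNA guides Argonaute proteins to messenger RNAs, mostly through pairing of its seed with sites in the 3′ UTR, and lowers their translation and their stability. The miR-181 family is best known for tuning antigen receptor signaling in lymphocytes and NF-κB signaling in vascular endothelium, where it targets the nuclear import of NF-κB. MTX is an antifolate given at low dose as an anti-inflammatory drug, and the study asked whether its action in vessels and in fat needs miR-181.

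The mature 5p sequences of the family, from RefSeq (GRCm38.p6), are shown because the deleted locus supplies only part of them. Capitals mark the seed, bases 2 to 8, which was ACAUUCA in all 6 genes.
miR-181a-5p: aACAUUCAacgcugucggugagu
miR-181b-5p: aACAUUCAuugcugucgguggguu
miR-181c-5p: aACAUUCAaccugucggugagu
miR-181d-5p: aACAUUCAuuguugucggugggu
Mir181a-2 and Mir181b-2, the deleted pair on chromosome 2, encode the first 2 of these sequences. Mir181a-1 and Mir181b-1 on chromosome 1 encode the same mature sequences and are intact in KO mice, as is the pair Mir181c and Mir181d on chromosome 8. The precursors of the 6 genes had 0 counts in nearly every library, with at most 2 counts of Mir181a-2 and 1 count of Mir181c in a library, so neither the deletion nor the mature miRNAs could be checked in these libraries.

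Seed matches were searched on the transcript strand of the longest annotated 3′ UTR of each gene (GENCODE M21, GRCm38). The motifs were TGAATGTA (8-base), TGAATGT and GAATGTA (7-base) and GAATGT (6-base), each site counted once under its longest form. Of the 8 genes 5 held a 7- or 8-base match, against 22.4% of the 15391 tested genes with a 3′ UTR. The 8 were chosen as reported targets, and their 3′ UTRs ran from 1190 to 6940 bases. Tested genes with 0 matches had a median of 844 bases and those with 3 or more a median of 4430. Neither choice nor length was allowed for, so the shares in this paragraph are descriptions. Prox1 held 4 and Bcl2 held 3, and 1.67% of genes held 3 or more. Nlk, Dusp6 and Sirt1 held 1 each. The sites of the genes described most closely are printed with the match in capitals and the first base of the match counted from the base after the stop codon.
Prox1, 8-base, position 18: caacgctctttTGAATGTAtggatag
Prox1, 8-base, position 5126: ttctcctaaacTGAATGTAtgtgcag
Bcl2, 8-base, position 3427: ataatcaggacTGAATGTAgataatg
Sirt1, 7-base, position 68: atgtcaaaaaaTGAATGTttacttgt
Nlk, 7-base, position 1201: gacttgaaactTGAATGTcccttcca
Dusp6, 7-base, position 1144: aatttattataaGAATGTAaaacctt
Phlpp2, 6-base, position 1129: ggatgttttctaGAATGTtgtagtga
The 3′ UTR of Kpna4, the longest of the 8 at 6940 bases, and that of Card10 (1455 bases) held none of these letters. This says nothing about sites of other kinds, in other transcripts or in coding sequence. The 8-base form alone was held by Prox1 and Bcl2, and by 5.71% of genes. With 6-base matches included, Phlpp2 joined and 6 of the 8 genes held a match, against 34.8% of genes.

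**Figure D1:**
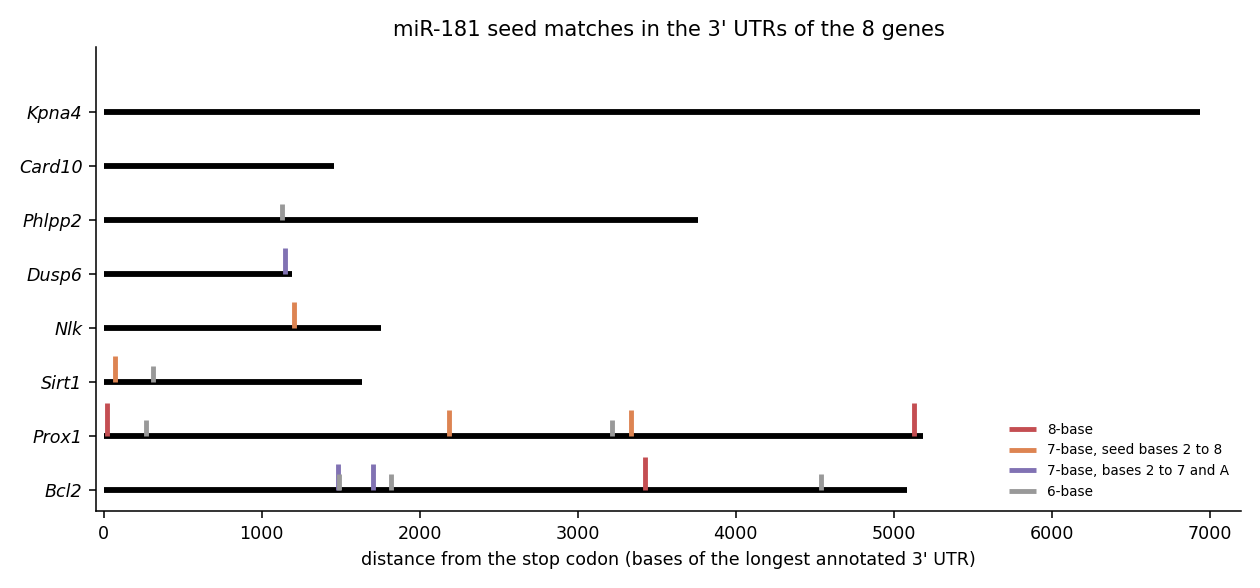
Seed matches of miR-181 along the longest annotated 3′ UTR of each gene, with the distance from the stop codon in bases on the x axis and 1 line per gene, its length that of the 3′ UTR. Tick height and color give the kind of match; Prox1 (4) and Bcl2 (3) carry the most 7- or 8-base matches, and Kpna4 and Card10 carry none.

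Before the values of the genes, the libraries themselves have to be described. Depth ranged from 19495310 to 23976469 counts. The 9 adipocyte markers were all present and summed to between 9629 and 47782 CPM (read counts relative to the depth of the library, scaled with TMM factors), so the libraries carry the labelled tissue. The 3 flox vehicle libraries stood apart: 14 markers of epididymis epithelium, the tissue that adjoins this fat pad, summed to 4542, 11716 and 1473 CPM in replicates 1, 3 and 4. The same list was at 484 CPM in flox MTX replicate 1 and between 1.22 and 19.4 CPM in the other 8 libraries. In the same 3 libraries 8 testis germ cell markers summed to 553, 383 and 161 CPM, against 0.26 to 9.79 CPM elsewhere, and 8 general epithelium markers to 312 to 1309 CPM, against 16.4 to 96.3 CPM. Markers of macrophages (8 genes, all present in every group) summed to 392 to 850 CPM in flox vehicle, 2863 to 4743 in KO vehicle, 683 to 3623 in flox MTX and 3954 to 6406 CPM in KO MTX libraries. Markers of endothelium (9 genes) summed to 302 to 450 CPM in flox vehicle and 660 to 987 CPM in KO vehicle libraries, and those of fibroblasts and stroma (7 genes) to 1722 to 3471 and 6839 to 10991 CPM. In bulk tissue, fewer cells of a type and less RNA per cell cannot be told apart. The main results of the 8 genes that involve flox vehicle mice are therefore also given without replicates 1 and 3. That fit leaves replicate 4 alone in its group and assumes that it varies like the other groups. Replicate 4 itself had 1473 CPM of epididymis and 161 CPM of germ cell markers. The fit therefore cannot separate these transcripts from the flox vehicle group.

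Kpna4 (ENSMUSG00000027782, chromosome 3, 69067149 to 69127113) encodes importin α3, which carries NF-κB into the nucleus. Its levels were 111, 102 and 141 CPM in flox vehicle replicates 1, 3 and 4, and 120, 101 and 108 CPM in KO vehicle replicates 1, 2 and 3. Under MTX they were 151, 106 and 190 CPM in flox replicates 1, 2 and 4, and 131, 110 and 130 CPM in KO replicates 2, 3 and 4. The 4 groups overlapped throughout, and the highest and lowest libraries differed by 1.88-fold. The log2 fold change of KO against flox was -0.10 (SE 0.20) with vehicle and -0.27 (SE 0.20) with MTX, with adjusted p of 0.74 and 0.435 by edgeR, and the first was -0.36 (adjusted p = 0.471) with flox vehicle replicates 1 and 3 left out. Group means ran from flox MTX (149 ± 42.0 CPM, SD, n = 3) through KO MTX (123 ± 12.0) and flox vehicle (118 ± 20.6) to KO vehicle (110 ± 9.84), and no neighbours in this order differed by more than their spread.

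Card10 (ENSMUSG00000033170, chromosome 15, 78775138 to 78803042) encodes CARMA3, the scaffold that joins Bcl10 and Malt1 on the way to NF-κB in cells other than lymphocytes. With vehicle it stood at 74.6, 47.5 and 48.0 CPM in flox replicates 1, 3 and 4 and at 62.2, 68.9 and 49.7 CPM in KO replicates 1, 2 and 3. With MTX it stood at 37.0, 41.4 and 41.3 CPM in flox replicates 1, 2 and 4 and at 44.8, 35.1 and 48.4 CPM in KO replicates 2, 3 and 4. Within each genotype every MTX library was below every vehicle library, whereas the genotypes overlapped under both treatments. The fitted change with MTX was -0.51 (SE 0.20) in flox and -0.49 (SE 0.20) in KO mice on the log2 scale, and -0.50 (SE 0.14) over both genotypes. The last had an adjusted p of 0.0469 (edgeR) and p = 0.005 in an exact two-sided permutation test within genotype, the smallest that this design can give, but its fold of 1.42 lay under the limit of 1.5 set for a call. The flox value rested on flox vehicle replicate 1, the highest library of all, without which it was -0.26 (adjusted p = 0.36, edgeR). With replicates 1 and 3 left out it was -0.26 (adjusted p = 0.719), and the value over both genotypes was -0.38 (adjusted p = 0.256). Group means were 60.3 ± 9.76 CPM in KO vehicle, 56.7 ± 15.5 in flox vehicle, 42.8 ± 6.90 in KO MTX and 39.9 ± 2.48 CPM in flox MTX mice (SD, n = 3), and no neighbours in this order differed by more than both of their SDs.

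Phlpp2 (ENSMUSG00000031732, chromosome 8, 109868542 to 109944671) encodes a phosphatase that removes an activating phosphate from Akt. Flox vehicle replicates 1, 3 and 4 had 25.6, 24.3 and 21 CPM, and KO vehicle replicates 1, 2 and 3 had 13.2, 15.8 and 12.9 CPM. Flox MTX replicates 1, 2 and 4 had 17.7, 18.8 and 20.8 CPM, and KO MTX replicates 2, 3 and 4 had 14.8, 15.9 and 16.2 CPM. Every KO library was below every flox library of the same treatment, and flox MTX libraries lay below flox vehicle libraries (log2 fold change -0.31, SE 0.14, adjusted p = 0.147, edgeR). Phlpp2 fell in KO against flox mice with vehicle, with a log2 fold change of -0.76 (SE 0.14, adjusted p = 0.00429, edgeR). The value was -0.58 (adjusted p = 0.116) when flox vehicle replicates 1 and 3 were left out. With MTX the same contrast was -0.29 (SE 0.14, adjusted p = 0.233), and the difference between the 2 contrasts, 0.47 (SE 0.20), did not pass the test (adjusted p = 0.297). Over both treatments the value was -0.52 (SE 0.10, adjusted p = 0.00387; p = 0.005 in the exact permutation test), which is a fold of 1.44, and -0.43 (adjusted p = 0.0403) with the 2 libraries left out. Group means were 23.6 ± 2.40 CPM in flox vehicle, 19.1 ± 1.60 in flox MTX, 15.6 ± 0.724 in KO MTX and 14 ± 1.60 CPM in KO vehicle mice, and only the libraries of the last 2 groups overlapped.

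Dusp6 (ENSMUSG00000019960, chromosome 10, 99263231 to 99267489) encodes a cytoplasmic phosphatase of ERK that is itself induced by ERK signaling. Its levels were 13.0, 17.5 and 21.8 CPM in flox vehicle replicates 1, 3 and 4 and 35.9, 38.3 and 47.1 CPM in KO vehicle replicates 1, 2 and 3. With MTX they were 24.6, 49.2 and 23.5 CPM in flox replicates 1, 2 and 4 and 52.2, 66.7 and 36.2 CPM in KO replicates 2, 3 and 4. Flox vehicle libraries were the lowest 3 of all 12, and flox MTX replicate 2 stood with the KO libraries. Dusp6 rose in KO against flox mice with vehicle by 1.21 on the log2 scale (SE 0.32, adjusted p = 0.0152, edgeR) and, over both treatments, by 0.94 (SE 0.22, adjusted p = 0.00947; p = 0.01 in the exact permutation test). When flox vehicle replicates 1 and 3 were left out these were 0.90 (adjusted p = 0.272) and 0.79 (adjusted p = 0.0842). With MTX the genotype difference was 0.67 (SE 0.31, adjusted p = 0.212), and without flox MTX replicate 2 it was 1.10 (adjusted p = 0.0323). The fit without that library called 4064 genes in all for this comparison, against 0 with all 12 libraries.

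Dusp6 also rose with MTX in flox mice, by 0.90 (SE 0.32, adjusted p = 0.0691, edgeR). Its log2 fold change was the same without flox vehicle replicate 3 and fell most without flox MTX replicate 2. The call depended on the libraries in the fit. It was lost without flox vehicle replicate 1 (0.73, adjusted p = 0.194), without flox vehicle replicate 3 (0.90, adjusted p = 0.178) or without flox MTX replicate 2 (0.48, adjusted p = 0.216), and with flox vehicle replicates 1 and 3 both left out the value was 0.58 (adjusted p = 0.686). In KO mice the change with MTX was 0.35 (SE 0.31, adjusted p = 0.822), and the 2 responses were not shown to differ (-0.54, SE 0.44, adjusted p = 0.573 for the interaction). The comparison of genotypes with vehicle and that of treatments in flox mice share the 3 flox vehicle libraries. Group means were 51.7 ± 15.2 CPM in KO MTX, 40.4 ± 5.93 in KO vehicle, 32.4 ± 14.5 in flox MTX and 17.4 ± 4.39 CPM in flox vehicle mice, and only the flox vehicle mean lay apart from its neighbour by more than either SD.

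The macrophage markers were higher in KO mice, as Dusp6 was, whereas Phlpp2 was lower there. In flox MTX replicates 1, 2 and 4 they summed to 2066, 3623 and 683 CPM, so that the library with the most Dusp6 of that group also had the most macrophage transcripts. In the library with the highest Dusp6 of all, KO MTX replicate 3, they summed to 6406 CPM, and in the 3 flox vehicle libraries to 550, 392 and 850 CPM. The part of these transcripts in the Dusp6 and Phlpp2 differences was not tested.

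**Figure D2:**
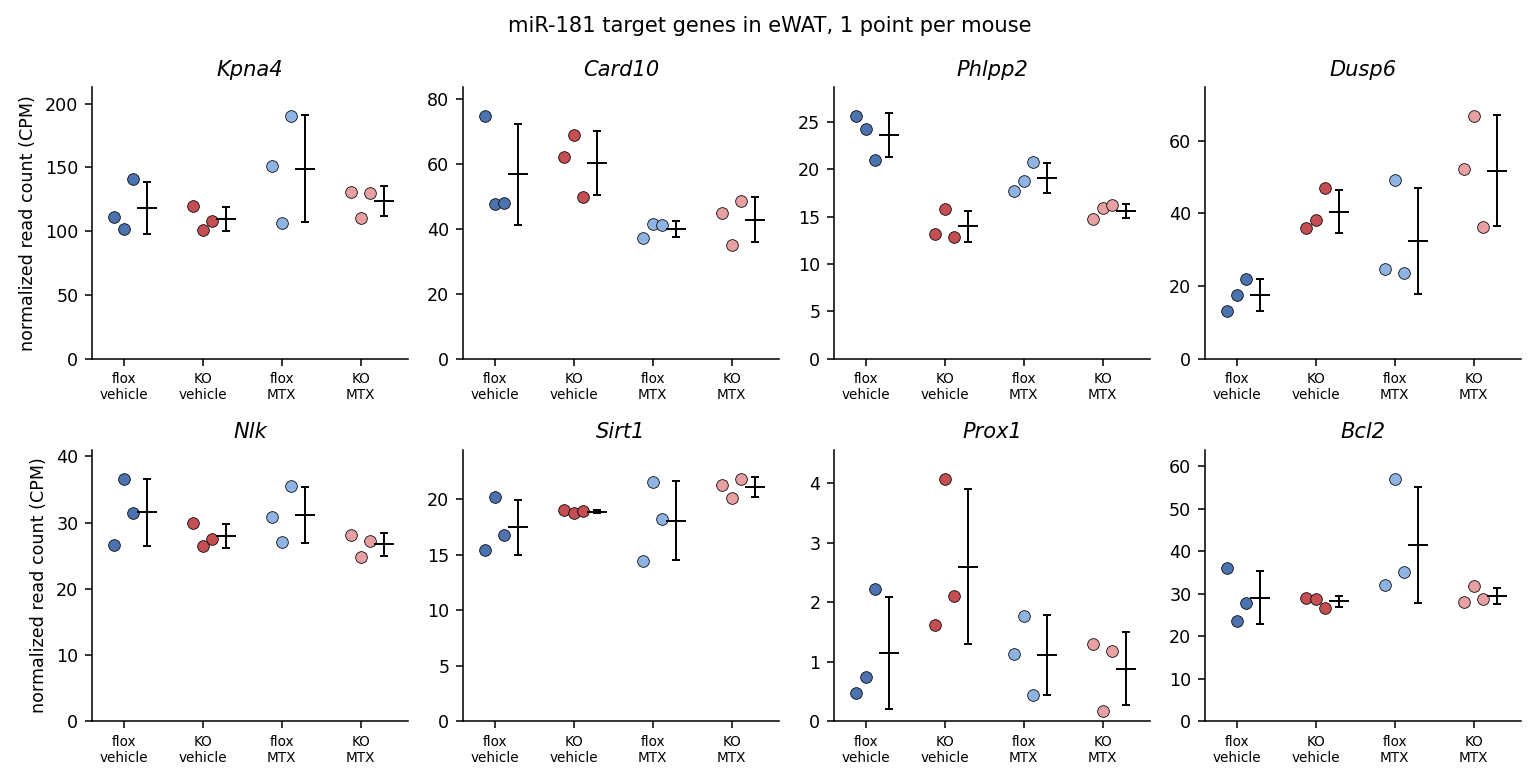
Normalized read counts (CPM, y axis from 0) of the 8 genes in the 4 groups, 1 point per mouse, with the mean and SD over 3 mice beside the points. Dusp6 is lowest in flox vehicle mice (13.0 to 21.8 CPM), Phlpp2 is lower in KO than in flox mice under each treatment, and Card10 is lower with MTX in each genotype.

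Nlk (ENSMUSG00000017376, chromosome 11, 78567168 to 78697373) encodes nemo-like kinase, which acts in Wnt and Notch signaling. It had 26.6, 36.6 and 31.4 CPM in flox vehicle replicates 1, 3 and 4, 29.9, 26.4 and 27.5 CPM in KO vehicle replicates 1, 2 and 3, 30.9, 27.1 and 35.5 CPM in flox MTX replicates 1, 2 and 4, and 28.1, 24.8 and 27.2 CPM in KO MTX replicates 2, 3 and 4. It varied least of the 8 genes, by 1.47-fold between the extreme libraries, and all groups overlapped. The genotype difference over both treatments was -0.20 (SE 0.10, adjusted p = 0.161, edgeR). Group means were 31.5 ± 4.97 CPM in flox vehicle, 31.2 ± 4.19 in flox MTX, 27.9 ± 1.80 in KO vehicle and 26.7 ± 1.71 CPM in KO MTX mice, with no step larger than the SDs on either side.

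Sirt1 (ENSMUSG00000020063, chromosome 10, 63319005 to 63381704) encodes an NAD-dependent deacetylase that links metabolism to transcription. Its levels were 15.4, 20.2 and 16.8 CPM in flox vehicle replicates 1, 3 and 4, 19, 18.7 and 18.9 CPM in KO vehicle replicates 1, 2 and 3, 14.4, 21.5 and 18.2 CPM in flox MTX replicates 1, 2 and 4, and 21.3, 20.1 and 21.8 CPM in KO MTX replicates 2, 3 and 4. KO MTX libraries lay above KO vehicle libraries without overlap, by a log2 fold change of 0.16 (SE 0.16, adjusted p = 0.848, edgeR), and the other pairs of groups overlapped. In order, the means were 21.1 ± 0.875 CPM in KO MTX, 18.9 ± 0.162 in KO vehicle, 18.0 ± 3.53 in flox MTX and 17.5 ± 2.44 CPM in flox vehicle mice, and only the first step was larger than both SDs. No comparison called the gene.

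Prox1 (ENSMUSG00000010175, chromosome 1, 190118035 to 190170714) encodes the transcription factor that gives lymphatic endothelium its identity. It was the rarest of the 8 genes, with 4 to 96 counts in a library. Flox vehicle replicates 1, 3 and 4 had 0.477, 0.747 and 2.22 CPM, KO vehicle replicates 1, 2 and 3 had 1.61, 4.07 and 2.11, flox MTX replicates 1, 2 and 4 had 1.13, 1.77 and 0.438, and KO MTX replicates 2, 3 and 4 had 1.30, 0.173 and 1.18 CPM. KO vehicle libraries lay above KO MTX libraries without overlap, and every other pair of groups overlapped. The log2 fold change of MTX in KO mice was -1.55 (SE 0.76, adjusted p = 0.657, edgeR), and that of KO against flox with vehicle was 1.18 (SE 0.75, adjusted p = 0.259). The second was called without flox vehicle replicate 4 (2.08, adjusted p = 0.0807) and was 0.24 without replicates 1 and 3. The 6 markers of lymphatic endothelium summed to 39.9 to 65.3 CPM in flox vehicle, 129 to 164 in KO vehicle, 84.0 to 170 in flox MTX and 111 to 120 CPM in KO MTX libraries, with Ccl21a, a gene of near-identical copies that share reads, at 0 in all libraries of each group except KO vehicle. With MTX in flox mice 2 of the 5 markers tested were called higher and 1 lower, against 8.09% and 16.1% of all genes. The sum thus joins genes that moved in opposite directions. The part of lymphatic cells in the Prox1 values was not tested. The group means, 2.60 ± 1.30 CPM in KO vehicle, 1.15 ± 0.936 in flox vehicle, 1.11 ± 0.668 in flox MTX and 0.886 ± 0.620 CPM in KO MTX mice, had 1 step larger than both SDs, that below KO vehicle.

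Bcl2 (ENSMUSG00000057329, chromosome 1, 106538178 to 106714274) encodes the founding inhibitor of mitochondrial apoptosis. In flox vehicle replicates 1, 3 and 4 it had 36.0, 23.6 and 27.7 CPM, followed by 29.1, 28.8 and 26.7 CPM in KO vehicle replicates 1, 2 and 3, 32.1, 57.0 and 35.2 CPM in flox MTX replicates 1, 2 and 4, and 28.1, 31.7 and 28.8 CPM in KO MTX replicates 2, 3 and 4. Flox MTX replicate 2 was the highest of all libraries. Flox MTX libraries lay above the KO libraries of either treatment without overlap, with a log2 fold change of KO against flox of -0.49 (SE 0.21, adjusted p = 0.192, edgeR). With MTX in flox mice the change was 0.51 (SE 0.21, adjusted p = 0.118), which became a call without flox vehicle replicate 1 (0.69, adjusted p = 0.0723), without flox MTX replicate 1 (0.66, adjusted p = 0.0701) or without flox MTX replicate 4 (0.62, adjusted p = 0.0918). The 6 B cell markers, all present in every group, summed to 26.0, 352 and 129 CPM in flox MTX replicates 1, 2 and 4. In KO MTX replicates 2, 3 and 4 they summed to 33.7, 301 and 93.1 CPM, so replicate 3 had 301 CPM of them beside 31.7 CPM of Bcl2. With vehicle they summed to 14.5 to 39.9 CPM in flox and 23.7 to 61.9 CPM in KO libraries. B cells are known to carry much Bcl2, and their part in the Bcl2 values was not tested. Group means were 41.4 ± 13.6 CPM in flox MTX, 29.6 ± 1.87 in KO MTX, 29.1 ± 6.28 in flox vehicle and 28.2 ± 1.32 CPM in KO vehicle mice, with no step larger than both SDs.

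**Figure D3:**
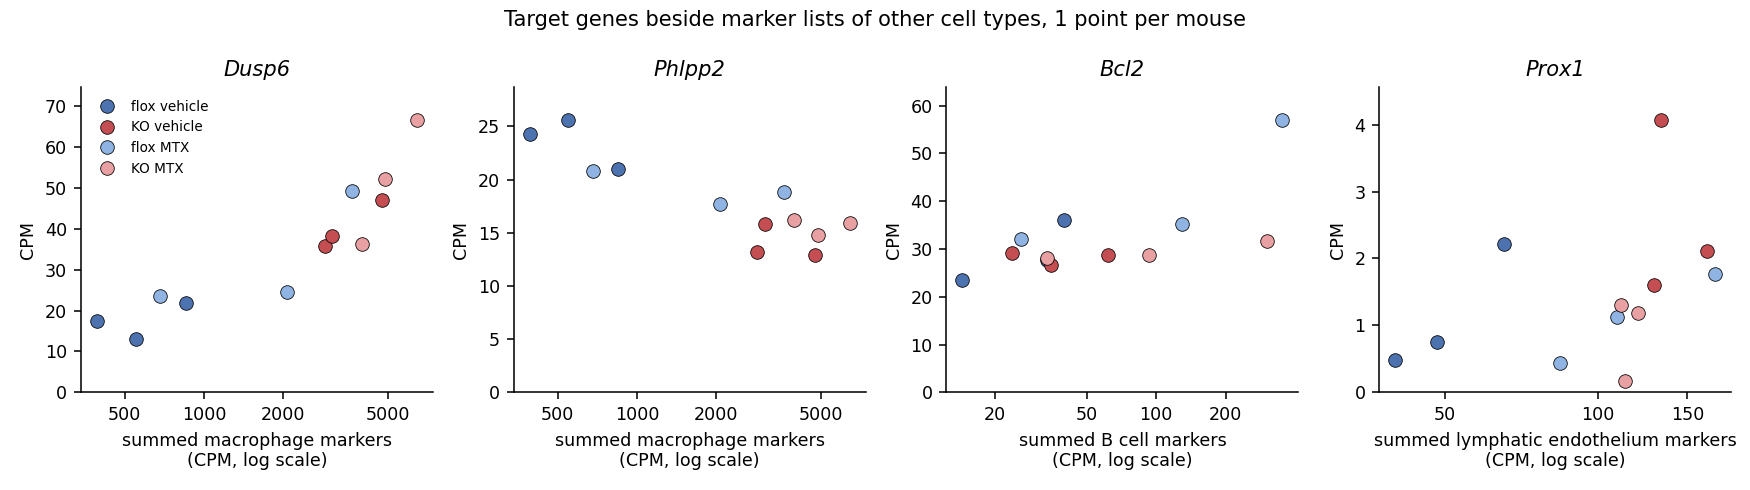
Level of Dusp6 and Phlpp2 against summed macrophage markers, of Bcl2 against B cell markers and of Prox1 against lymphatic endothelium markers, all in CPM with a log x axis, 1 point per mouse colored by group. The 3 flox vehicle mice sit at 392 to 850 CPM of macrophage markers with the lowest Dusp6, and the flox MTX mouse with 57.0 CPM of Bcl2 has the most B cell transcripts (352 CPM). A KO MTX mouse with 301 CPM of B cell transcripts has 31.7 CPM of Bcl2.

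Per kilobase of exon the median levels over the 12 libraries were 12.9 CPM for Kpna4, 11.5 for Dusp6, 9.64 for Card10, 5.10 for Nlk, 3.55 for Sirt1, 3.17 for Bcl2, 2.00 for Phlpp2 and 0.148 CPM for Prox1. Both genes of the NF-κB arm and Dusp6 were thus the most abundant on this scale, and Prox1 was the rarest.

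The question behind the first comparison is whether transcripts targeted by miR-181 differ when Mir181a2b2 is missing. With vehicle, 1 of the 8 genes rose (Dusp6), 1 fell (Phlpp2) and 6 did not pass the test. Of all genes tested 31.7% were called, 13.9% higher and 17.8% lower, so 2 of 8 is close to the background. The median log2 fold change of the 8 genes was 0.02, and that of all genes tested was -0.06. With MTX none of the 8 genes was called, nor was any gene (0% by edgeR). At an unadjusted p under 0.05 there were 4576 genes, Bcl2 the only one of the 8, and DESeq2 called 2740 genes and none of the 8. Over both treatments, 6 mice against 6, Dusp6 was called and Phlpp2 passed the p limit alone, against 28.5% of genes called and 41.9% past the p limit with any fold.

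The second comparison asks what MTX does where the locus is intact. In flox mice 1 of the 8 genes rose (Dusp6) and none fell, against 24.2% of all genes called, 8.09% higher and 16.1% lower. Without the fold limit Card10 (adjusted p = 0.0965, edgeR) was the second, against 28.1% of genes. The medians were 0.01 for the 8 genes and 0.05 for all genes. In KO mice no gene was called (0% by edgeR), Card10 being the only one of the 8 among 1491 genes at an unadjusted p under 0.05, and DESeq2 called 276 genes and none of the 8. No interaction of genotype and MTX was called in the 8 genes, against 0.989% of all genes. Over both genotypes Dusp6 (0.63, SE 0.22, adjusted p = 0.0918; p = 0.025 in the exact permutation test) was called and Card10 passed the p limit alone, against 14.5% of genes called and 19.1% without the fold limit. The Dusp6 call was lost when any 1 of 7 libraries was left out, with adjusted p from 0.15 to 0.191.

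**Figure D4:**
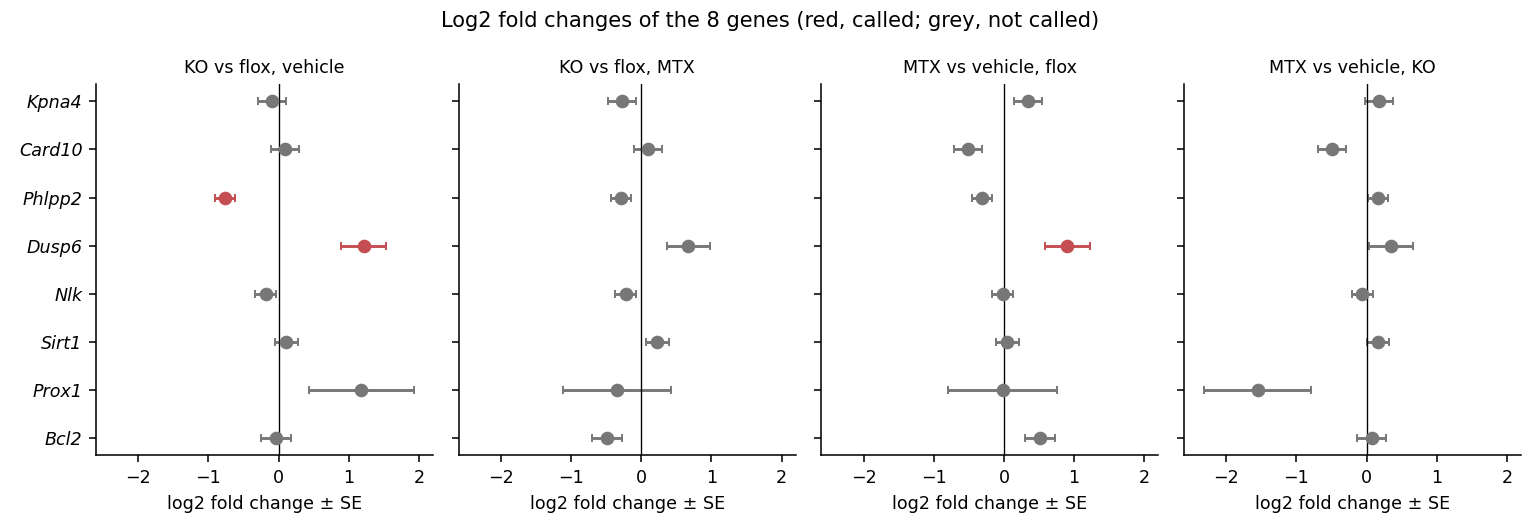
Log2 fold change with its SE (x axis) of the 8 genes in the 4 comparisons of 3 mice with 3, from the edgeR fit to all 12 libraries, with called genes in red. Dusp6 (1.21) and Phlpp2 (-0.76) are called in KO against flox mice with vehicle and Dusp6 (0.90) in MTX against vehicle in flox mice, and the SE of Prox1 is the widest.

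A further 21 genes that earlier work names as miR-181 targets were tested in the same fit. In KO against flox mice with vehicle 5 of them rose and none fell, against 13.9% of all genes higher and 17.8% lower. They were Fos (3.45, SE 0.63), an immediate early transcription factor, from 9.31 to 101 CPM; Spp1 (2.67, SE 1.01), the macrophage product osteopontin; S1pr1 (1.24, SE 0.20), the endothelial and lymphocyte receptor of sphingosine 1-phosphate, from 41.5 to 98.1 CPM; Mcl1 (1.01, SE 0.21), an inhibitor of apoptosis; and Timp3 (0.75, SE 0.20), an inhibitor of metalloproteinases. The median of the 21 was 0.18, and that of all genes tested was -0.06. Over both treatments 6 rose and 1 fell, Timp3 no longer being called and the additional calls being Dusp5 (0.93), Tgfbr1 (0.62) and, lower in KO mice, the kinase Hipk2 (-0.76). Of all genes 28.5% were called in that comparison, in either direction. With MTX in flox mice Mcl1 (0.74) and Fos (2.02) rose. Without flox vehicle replicates 1 and 3 the fit has 1 flox vehicle library, and most of the 5 calls with vehicle were not kept. The median of the 21 there was 0.24 with vehicle, against -0.01 for all genes. Over both treatments it was 0.30, against -0.05. Of the 9 endothelium markers 7 were also called higher in KO mice with vehicle (median 1.20), as were all 8 macrophage (2.43) and all 7 fibroblast and stroma markers (1.51). The part of these cells in the values of S1pr1, Spp1 and the others was not tested.

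The partners of the 8 genes in their pathways were taken from fixed lists. Of 5 other importins tested none was called in any of the 7 comparisons. These include KO against flox with MTX and MTX in KO mice, where no gene at all was called. Around Card10, Bcl10 (0.73, SE 0.20) rose and Card14 (-1.11, SE 0.37) fell in KO against flox mice with vehicle, and Malt1 had 27.1 ± 6.92 CPM in flox and 27.4 ± 2.40 CPM in KO mice (SD, n = 3). Card9 rose in KO mice over both treatments (0.83). Around Phlpp2, Akt1 (0.59) rose and Pdpk1 (-0.70), the kinase that activates Akt, fell with vehicle. Over both treatments Akt2, the main isoform of insulin action, also fell in KO mice (-0.72, SE 0.22). In that comparison 7 of the 9 adipocyte markers fell as well (median -0.93), against 28.5% of all genes called in either direction. The part of adipocytes in the Akt2 value was not tested. Phlpp1, the paralog of Phlpp2, had 15.5 ± 0.607 CPM in flox and 14.6 ± 0.260 CPM in KO vehicle mice and was called nowhere.

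The other 9 MAP kinase phosphatases went in both directions in KO against flox mice with vehicle. Dusp1 (2.32, SE 0.43) and Dusp7 (1.28, SE 0.22), which also acts on ERK, rose, whereas Dusp4 (-1.82, SE 0.26) and Dusp16 (-0.66, SE 0.16) fell. With MTX in flox mice Dusp1 (1.10) and Dusp2 (2.43) rose. Of 6 other sirtuins Sirt2 (0.64) and Sirt7 (0.62) rose with vehicle, and Sirt5 fell in KO mice over both treatments (-0.59). Of 16 other genes of the Bcl2 family 8 rose with vehicle, none fell and 8 were not called, with a median of 0.49. Those that rose were the inhibitors of apoptosis Bcl2l1 (0.85), Mcl1 (1.01), Bcl2a1a (1.60), Bcl2a1b (3.41) and Bcl2a1d (2.41), of which the last 3 are near-identical copies that share reads, and the promoters of apoptosis Bax (1.06), Bak1 (0.94) and Bbc3 (0.60). In flox mice given MTX Bak1 (0.65), Mcl1 (0.74), Bcl2a1b (2.47) and Bcl2a1d (1.24) rose. Over both treatments 7 of the 16 genes rose in KO mice, all of the above except Bbc3, and over both genotypes Bcl2a1b (1.37) rose with MTX. All these values are log2 fold changes of called genes (edgeR), to be read against the shares of all genes called that were given above. Without flox vehicle replicates 1 and 3, most of the genotype calls with vehicle were not kept, nor were those with MTX in flox mice. That fit has 1 flox vehicle library. Its medians for KO against flox with vehicle were -0.25 for importins, 0.24 around Card10 and -0.16 around Phlpp2. They were 0.53 for sirtuins, 0.40 for MAP kinase phosphatases and 0.79 for the Bcl2 family, against -0.01 for all genes. With MTX in flox mice they were 0.11, 0.16, 0.08, 0.19, 0.25 and 0.34 in the same order, against 0.07.

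For each of the 8 genes the 2 most similar genes over the 12 libraries were sought among 11840 tested genes with a symbol and a mean of at least 5 CPM, by Pearson's r of log2-CPM. Dusp6 was most like Plcb2 (r = 0.986), a phospholipase of hematopoietic cells, and Fcho2 (0.982). Prox1 was most like Flt4 (0.857), the VEGF receptor of lymphatic endothelium, and Tagln (0.777). Bcl2 was most like Slit3 (0.951) and Ltbp2 (0.918), both secreted by stromal cells, Kpna4 like Rab10 (0.979) and Ppp2ca (0.977), and Phlpp2 like Huwe1 (0.968) and Gcn1l1 (0.954). Nlk was most like Aga (0.957) and Gamt (0.941), Sirt1 like Ubn1 (0.906) and Ccdc134 (0.883), and Card10 like the noncoding RNA Bvht (0.926) and 2700081O15Rik (0.917). The points share the 4 groups and their cell content, so the r are descriptions. Among the 8 genes themselves r lay between -0.80 (Phlpp2 and Dusp6) and 0.63 (Sirt1 and Dusp6).

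All tested genes with an annotated 3′ UTR were then sorted by their number of 7- or 8-base matches to the miR-181 seed. In KO against flox mice with vehicle the median log2 fold change was -0.04 for 11942 genes with 0 matches, -0.05 for 2575 genes with 1, -0.12 for 617 genes with 2 and -0.12 for 257 genes with 3 or more. The ranges between the quartiles overlapped widely, from -0.56 to 0.40 for genes with 0 matches and from -0.41 to 0.24 for genes with 3 or more. With MTX the medians were -0.03, -0.03, -0.09 and -0.07 in the same order. Without flox vehicle replicates 1 and 3 the medians with vehicle were -0.01, -0.05, -0.13 and -0.13. Medians of genes with 2 or more matches were thus slightly below those of genes with fewer in KO mice. The median 3′ UTR length rose with the matches, from 844 through 1990 and 3223 to 4430 bases, and its part in these medians was not tested. Calls higher in KO mice with vehicle were made for 15.0% of genes with 0 matches and 7.78% of genes with 3 or more, and calls lower for 18.7% and 14.8%. Dusp6 (1 match) and Prox1 (4 matches) lay above the upper quartile of their class with vehicle, Phlpp2 (0 matches) lay below the lower quartile of its class, and the other 5 genes lay between the quartiles.

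**Figure D5:**
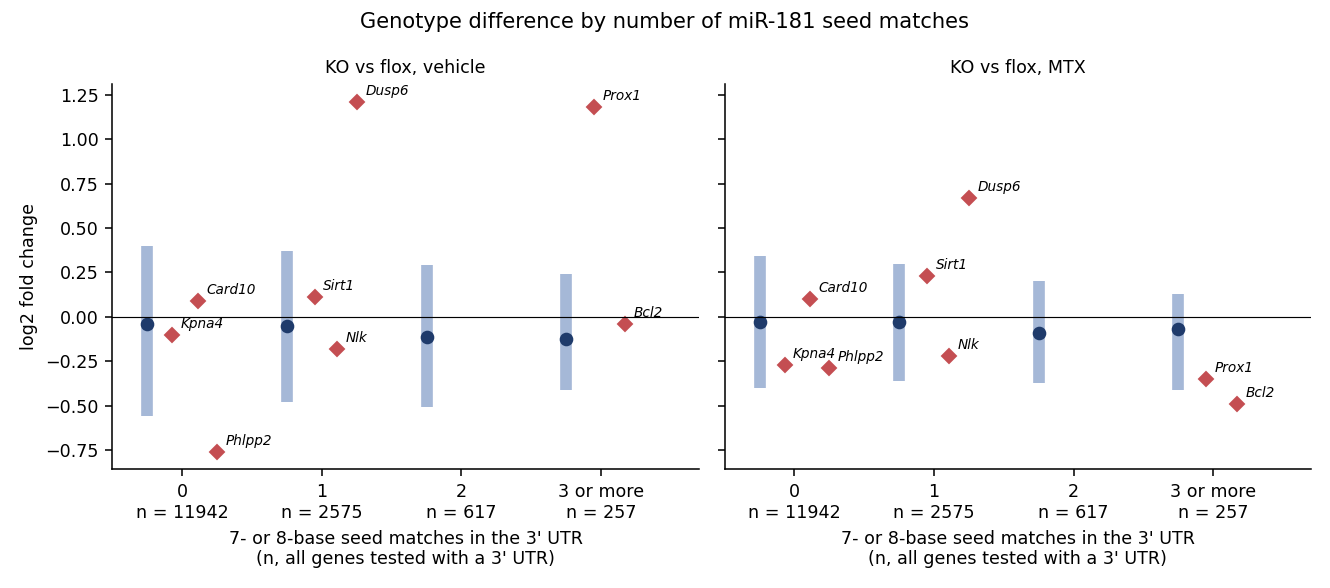
Log2 fold change of KO against flox mice (y axis) by the number of 7- or 8-base miR-181 seed matches in the 3′ UTR (x axis), with vehicle on the left and MTX on the right. Blue bars span the quartiles of all tested genes of a class, dots mark their medians and red diamonds the 8 target genes; the medians lie between -0.12 and -0.03, and Dusp6 and Prox1 lie above the bars with vehicle.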

How the data were processed

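RNA of eWAT from 12 mice (3 per group) had been sequenced. The authors deposited raw read counts per Ensembl gene, with no normalization. Per the submitters' processing notes, reads were trimmed with Trimmomatic 0.36, aligned to GRCm38 with STAR 2.5.2b and counted with featureCounts (Subread 1.5.2). How strand and reads with several positions were treated is not given in the sources used here. The methods describe ribosomal depletion, whereas the labels describe polyA RNA, and which applies is not known. Genes without a symbol held 0.0688% of the counts.

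Tests on the counts used edgeR 4.0.16 in R 4.3.3 (TMM, filterByExpr by group, 1 coefficient per group over 12 libraries, quasi-likelihood F-test, Benjamini-Hochberg adjustment over 18702 genes). The fit had 8 residual degrees of freedom. Calls needed both an adjusted p under 0.1 and a 1.5-fold difference or more. The comparisons were the 4 pairs of groups that differ in 1 factor, their interaction, and each factor averaged over the other. Exact permutation tests used log2-CPM (prior count 2), two-sided, and cannot go below 0.1 for 3 mice against 3, so no single comparison of that size can pass by them. Marker and pathway lists, all in CPM with TMM factors, were summed or counted and not tested as sets. The members and the lists were chosen with earlier results of these data known. Named genes were the 8 targets, the called genes of the related lists (some are not reported here), the 2 genes most like each target and the precursors. Malt1 and Phlpp1 were named after their values were seen. A count of 0 allows up to 3 counts.

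No pair of libraries was a duplicate (chi-square per degree of freedom at least 12.9 within groups). No pairing of the mice by replicate number was seen, which does not exclude it. The procedure was tested on simulated data. Alternatives were DESeq2 1.42.0, other size factors, filters and limits, a replicate block, the libraries of a comparison alone, each library left out in turn and, chosen after the values were seen, flox vehicle replicates 1 and 3 left out together. Mature miRNAs are from RefSeq, and 3′ UTRs from GENCODE M21, both on GRCm38.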

Additional observations from a re-analysis of the deposited data

How the results depend on the processing

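Of the recomputed log2 fold changes of the 8 genes, 1019 kept their direction and side of the threshold, 21 lost a call, 9 gained one and 40 changed sign, every sign change being of a gene that was not called. Dusp6 and Phlpp2 in KO against flox mice with vehicle kept their calls in each of 12 fits without 1 library, with log2 values from 1.05 to 1.41 and from -0.85 to -0.69, and in 7 of 8 other fits. The exception was the fit without flox vehicle replicates 1 and 3, where 1415 genes were called in all, against 5924.

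In the main fit no gene at all was called for KO against flox with MTX or for MTX in KO mice, even at a fold of 1.5. At a log2 fold change of at least 1.5, for which the share of all genes was not computed, 0 of the 8 genes were called in any comparison. Without flox vehicle replicates 1 and 3, 0 were called in KO against flox mice with vehicle and in both MTX comparisons that use flox mice. With MTX, KO against flox gave 0 to 1 genes over the fits without 1 library. The 1 call was Dusp6 without flox MTX replicate 2, where 4064 genes were called in all, against 0 in the main fit. For MTX in flox mice the count was 0 with at least 10 counts in every library, with the libraries of the comparison alone and at an adjusted p below 0.05, 2 without a fold limit, and 0 to 2 without 1 library. Among all genes, 2198 were called with at least 10 counts and 2167 with the comparison alone, against 4528 in the main fit. Without 1 library 2219 to 5995 were called. With library size as the only scaling, and with the replicate block, the 1 gene called there was Card10 (-0.70 and -0.63) and not Dusp6 (0.74 and 0.83), whereas without flox vehicle replicate 1 Card10 was at -0.26. For MTX over both genotypes the count of the 8 genes was 0 with at least 10 counts in every library, with the replicate block and at an adjusted p below 0.05, 2 without a fold limit, and 0 to 1 without 1 library. Among all genes, 1165 were called with at least 10 counts and 1157 with the replicate block, against 2719 in the main fit. The fits without 1 library that gave 0 called 1375 to 2446 genes. For KO over both treatments the count of the 8 genes was 2 without a fold limit. Seed matches of 8 bases alone were held by 2 genes. The causes were not tested.

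Signs changed as follows. With the replicate block, Kpna4 was at 0.06 in KO against flox mice with vehicle and Nlk at 0.02 for MTX in flox mice. No pairing of the mice by number was seen (median residual correlation 0.0353 over 12 pairs with the same number and 0.0112 over 42 others). So few pairs cannot exclude it. With library size as the only scaling, Sirt1 was at -0.15 for MTX in flox mice and at -0.01 over both genotypes, and the interaction was 0.04 for Kpna4 and 0.15 for Nlk. This scaling moved the median of all genes from 0.05 to -0.15 for MTX in flox mice, from -0.05 to 0.12 for KO against flox with MTX, and from -0.05 to 0.13 for the interaction. Relative to the median, Dusp6 was at 0.89 and Sirt1 at 0.01 for MTX in flox mice. With no filter, Nlk was at 0.01 and Prox1 at 0.00 for MTX in flox mice and Card10 at -0.02 for the interaction. Without flox vehicle replicates 1 and 3, Bcl2 was at 0.03 in KO against flox mice with vehicle, Prox1 at -0.05 over both treatments, Phlpp2 at 0.02 for MTX over both genotypes, and the interaction was 0.09 for Kpna4 and -0.23 for Card10.

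Without 1 library, KO against flox with vehicle ran from -0.20 to 0.05 for Kpna4, -0.03 to 0.34 for Card10 and -0.18 to 0.14 for Bcl2, and with MTX from -0.73 to 0.15 for Prox1. MTX in flox mice ran from -0.09 to 0.18 for Sirt1, -0.12 to 0.10 for Nlk and -0.50 to 0.88 for Prox1, and over both genotypes from -0.09 to 0.02 for Nlk. The interaction ran from -0.37 to 0.03 for Kpna4, -0.24 to 0.13 for Card10, -0.03 to 0.25 for Sirt1 and -0.17 to 0.06 for Nlk. In the comparisons of 3 mice with 3, SEs were 0.14 to 0.32 for all genes but Prox1, so small changes of targets were not detectable. Prox1, with as few as 4 counts, could not be measured closely.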
